A study of Mus musculus with 25 samples.

Results

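H3K9me3 and H3K27me3 are trimethyl marks on histone H3 that both lie on silenced chromatin. They were compared here in HIF1dPA regenerating myofibers, which express a HIF1α whose proline-to-alanine change keeps VHL from recognising it for degradation. The members are the peaks on chromosomes 1 to 19 in the 6 HIF1dPA lists, 3 libraries for each mark, chosen by the genotype and antibody in the labels. They number 5734 of the 55242 peaks in the 24 lists of the whole series, and 342 further peaks of these 6 lists on X or Y were left out. All 3 H3K9me3 lists together hold 4271 of them, and the 3 H3K27me3 lists hold 1463.

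Every mouse in the study carried mito-Dendra2, a mitochondrial fluorescent reporter, and a Pax7-Cre(ERT2) driver, so that recombination starts in Pax7+ muscle stem cells and marks their progeny. Tamoxifen was given at 75 mg/kg daily for 5 days, the tibialis anterior muscle received 50 µL of BaCl2 at 1.2% as the injury 2 days later, and fibres positive for Dendra2 were dissected 14 days after injury. HIF1dPA differs from wild-type by conditional expression of the HIF1dPA allele, so the change reaches only fibres built from recombined stem cells. The other genotypes, used below only for comparison, were wild-type, mfn2-/-, which lacks the mitochondrial fusion protein mitofusin 2, and vhl-/-, which lacks the protein that targets HIF1α for degradation, each with 3 libraries per mark. Age and sex are not given in the sources used here. The study describes the 3 libraries of a data set as biological replicates, and whether both marks were taken from the same mice is not given. The fibres were dissected and not sorted as nuclei, and nuclei of other cells lying on them may be included.

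H3K27me3 is laid down by Polycomb repressive complex 2, mostly over CpG-rich promoters of developmental regulators that a cell type does not use, such as the Hox clusters. H3K9me3 is laid down by SETDB1 and SUV39H enzymes and is known from repeats, pericentromeric chromatin and clusters of zinc finger genes. The systems are generally found at different places. A peak below is an interval in which the authors' caller found more reads than background in 1 library, and its score is -10 × log10 of the caller's p-value, so that a higher score means stronger evidence. The lists carry no read totals, so the depth of each library is unknown, and a missing peak can mean a weak signal as well as none.

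To show what kind of promoter lay under each mark, 4 RefSeq promoter windows of build GRCm38 are printed, each running from 250 bases before to 50 after an annotated start, with every CG in capitals. The windows of the non-coding gene Gm40237 (chr4:118546889-118547188, + strand) and of Lhx6, a LIM homeobox gene (chr2:36104011-36104310, - strand), lay under H3K27me3 peaks in 3 and 2 of the 3 lists. Those of Duxf3, a double homeobox gene (chr10:58233040-58233339, - strand), and Gm17353, in a zinc finger gene cluster (chr13:65896933-65897232, + strand), lay under H3K9me3 peaks in all 3 lists.
Gm40237: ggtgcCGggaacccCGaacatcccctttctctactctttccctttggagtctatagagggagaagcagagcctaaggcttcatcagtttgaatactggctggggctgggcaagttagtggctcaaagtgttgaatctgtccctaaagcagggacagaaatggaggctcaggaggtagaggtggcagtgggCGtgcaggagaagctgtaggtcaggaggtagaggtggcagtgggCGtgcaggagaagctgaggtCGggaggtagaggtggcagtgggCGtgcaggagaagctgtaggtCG
Lhx6: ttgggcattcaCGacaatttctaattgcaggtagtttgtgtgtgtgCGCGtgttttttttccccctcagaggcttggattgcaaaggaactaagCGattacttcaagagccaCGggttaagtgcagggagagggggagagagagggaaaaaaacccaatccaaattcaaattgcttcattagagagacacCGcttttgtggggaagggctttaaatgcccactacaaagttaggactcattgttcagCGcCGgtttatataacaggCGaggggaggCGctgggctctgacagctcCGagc
Duxf3: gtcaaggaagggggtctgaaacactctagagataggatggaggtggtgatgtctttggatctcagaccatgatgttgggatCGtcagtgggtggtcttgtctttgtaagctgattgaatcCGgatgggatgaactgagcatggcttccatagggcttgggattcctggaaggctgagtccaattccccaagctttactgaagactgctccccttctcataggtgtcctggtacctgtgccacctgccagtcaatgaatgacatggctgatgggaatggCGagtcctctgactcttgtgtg
Gm17353: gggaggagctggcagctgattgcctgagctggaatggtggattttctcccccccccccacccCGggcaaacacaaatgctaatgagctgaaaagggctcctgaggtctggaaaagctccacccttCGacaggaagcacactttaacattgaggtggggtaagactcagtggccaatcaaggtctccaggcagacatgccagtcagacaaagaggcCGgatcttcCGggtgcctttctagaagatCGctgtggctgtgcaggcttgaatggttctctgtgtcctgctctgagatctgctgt
The H3K27me3 peaks over the Gm40237 window, assigned by the authors to the neighbouring gene Tmem125, scored 130, 110 and 109, and 1 H3K9me3 list also had a peak there, at 82.0. The Lhx6 window was under H3K27me3 peaks of score 65.3 and 81.8 in lists 1 and 3 and under no H3K9me3 peak. The Duxf3 window was under H3K9me3 peaks of 76.2, 69.0 and 81.4, and the Gm17353 window under peaks of 181, 64.8 and 58.5 that were assigned to Cbx3-ps1. The 4 windows hold 7, 11, 3 and 5 CG in that order.

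Over all 31365 autosomal windows of 300 bases, the motif CG, which reads the same on both strands, occurred at least once in 94.7% and at least 15 times in 35.2%, with a median of 7 per window. Windows under H3K27me3 peaks numbered 27, 27 and 30 per list and had a median of 11, 9 and 11 CG, and those under H3K9me3 peaks numbered 27, 22 and 15 and had a median of 5, 3 and 4. At least 15 CG were present in 40.7%, 29.6% and 40.0% of the windows under H3K27me3 and in 0%, 0% and 6.67% of those under H3K9me3. The marks did not overlap in either measure. The H3K27me3 shares lay on both sides of the 35.2% of all windows, while the medians under H3K27me3 were above 7. The windows were few beside the 178, 208 and 184 H3K27me3 peaks per list in promoter classes, which reach 3 kb from a start. Over the 3 lists together 79 windows lay under H3K27me3 and 48 under H3K9me3, and 3 lay under both, 2 of them of Gm40237 and the other of Tchh, which encodes a hair follicle protein.

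The lists differed first in size. H3K9me3 lists held 1542, 1588 and 1141 autosomal peaks covering 1.46, 1.50 and 1.12 Mb. H3K27me3 lists held 474, 493 and 496 peaks covering 0.318, 0.341 and 0.341 Mb. H3K27me3 thus had 0.346 times as many peaks (488 ± 11.9 against 1424 ± 246, SD, n = 3 each) and 0.247 times the covered length (0.333 ± 0.0132 against 1.36 ± 0.213 Mb, SD, n = 3 each), both ratios of geometric means, with no overlap between the marks. In an exact two-sided permutation test of 3 libraries against 3, both gave p = 0.1, the smallest value that this design allows, so no comparison between the marks within HIF1dPA can pass 0.05.

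Typical peaks were about equally wide, and the wide ones were H3K9me3. The median width was 643, 646 and 610 bp in H3K9me3 lists and 611, 617 and 622 bp in H3K27me3 lists, which overlap (ratio 0.974, exact two-sided permutation p = 0.4). Peaks of 2 kb or wider made up 6.61%, 6.55% and 6.22% of H3K9me3 peaks, which is 102, 104 and 71 peaks, and 0.633%, 1.22% and 0.605% of H3K27me3 peaks, which is 3, 6 and 3. The widest H3K9me3 peaks spanned 17518, 11703 and 13261 bp, and the widest H3K27me3 peaks 3549, 3068 and 3485 bp. H3K9me3 peaks at promoters were wider than those between genes, with medians of 847, 841 and 983 bp against 628, 632 and 599 bp, and for H3K27me3 the same medians were 632, 633 and 675 bp against 603, 609 and 601 bp. Taking the mean in place of the median width gave a ratio of 0.713, and taking the 474 strongest peaks of every list gave a ratio of medians of 0.618, in both cases with the marks apart. The cut to 474 dropped the weaker H3K9me3 peaks and left the H3K27me3 lists nearly whole.

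**Figure D1:**
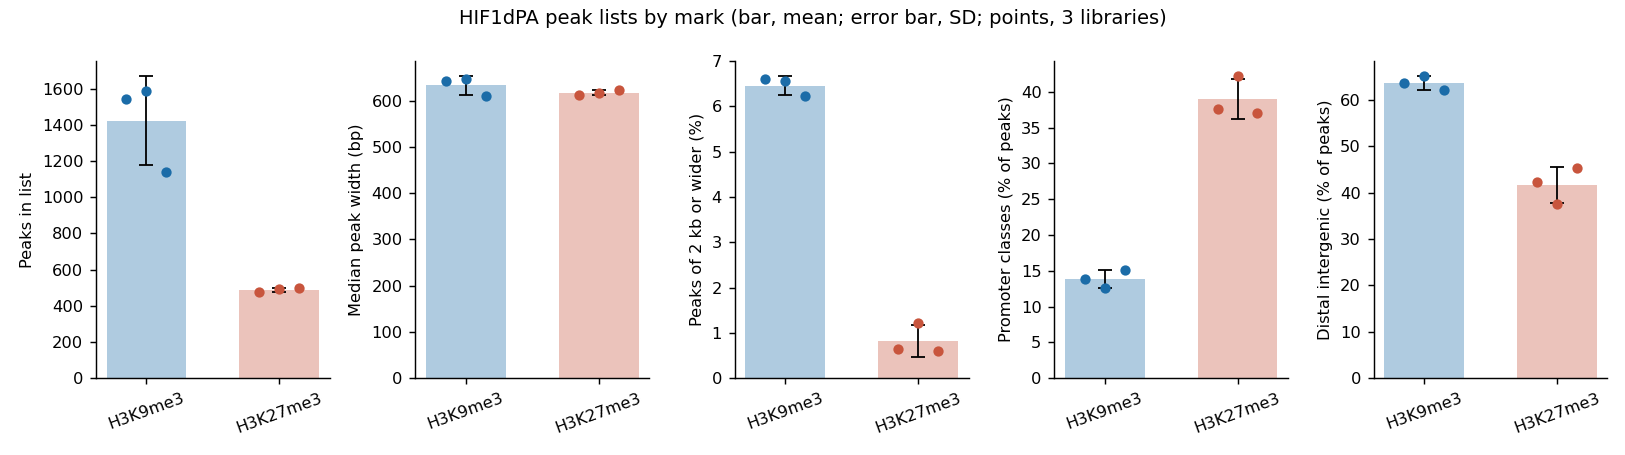
Peaks per list, median peak width in bp, and the percentage of peaks that were 2 kb or wider, in promoter classes or in the distal intergenic class, for the 3 H3K9me3 and 3 H3K27me3 libraries of HIF1dPA (bars, mean; error bars, SD; points, libraries). The marks are apart in every panel but width, where the medians run from 610 to 646 bp and from 611 to 622 bp.

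H3K27me3 lay at promoters more often than H3K9me3. The authors' promoter classes, which reach 3 kb from a start, took 37.6%, 42.2% and 37.1% of H3K27me3 peaks and 13.9%, 12.6% and 15.1% of H3K9me3 peaks, a difference of 25.1 percentage points between means of 38.9% ± 2.82 and 13.9% ± 1.24 (SD, n = 3 each, exact permutation p = 0.1). The class up to 1 kb alone took 19.5% ± 1.43 of H3K27me3 and 7.18% ± 1.06 of H3K9me3 peaks (SD, n = 3 each). The distal intergenic class took 42.2%, 37.5% and 45.2% of H3K27me3 peaks and 63.7%, 65.1% and 62.1% of H3K9me3 peaks, a difference of -22.0 percentage points (exact permutation p = 0.1). Introns held similar shares, 15.9% ± 1.56 of H3K27me3 and 16.3% ± 0.227 of H3K9me3 peaks, and exons held 1.37% ± 0.135 and 3.41% ± 0.260 (SD, n = 3 each). Together introns and exons differed by -2.46 percentage points, a difference that became 0.422 points among the 474 strongest peaks of each list.

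Several gene families took different shares of the 2 marks, while predicted and RIKEN genes took the largest family share of both. The authors assigned H3K27me3 peaks to 422, 425 and 431 genes per list and H3K9me3 peaks to 956, 964 and 728, a ratio of 0.487 (exact permutation p = 0.1). H3K9me3 lists had more peaks per gene, 1.61, 1.65 and 1.57 against 1.12, 1.16 and 1.15 for H3K27me3, and among the 474 strongest peaks of each list the order turned, with 1.46 times as many genes for H3K27me3. That setting compared nearly whole H3K27me3 lists with the strongest part of the H3K9me3 lists. Of 2782 genes assigned any peak in the 6 lists, 206 (7.40%) had H3K9me3 in all 3 lists and H3K27me3 in none, and 28 (1.01%) had H3K27me3 in all 3 and H3K9me3 in none. These rest on peaks called per library, and leaving out H3K27me3 library 1, 2 or 3 raised the 28 genes to 72, 66 and 74 because fewer lists then have to hold the gene.

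Among protein-coding RefSeq genes of the autosomes, 5.24% had an H3K9me3 peak in at least 1 list and 0.590% in all 3, and 3.60% had an H3K27me3 peak in at least 1 list and 0.169% in all 3. The family counts below were set beside these shares as a description, without a test.

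Developmental regulators were the family with the largest share of H3K27me3 peaks among the named families, leaving out predicted and RIKEN genes. Homeobox and other developmental transcription factors, counted by symbol, took 13.9%, 14.4% and 13.7% of H3K27me3 peaks and 0.259%, 0.567% and 0.175% of H3K9me3 peaks. Of the 214 genes of this family, 97 (45.3%) had H3K27me3, of which 10 were in all 3 lists (4.67% of the family), 35 in 2 and 52 in 1, so most members had no peak. H3K9me3 was at 13 (6.07%), near the share of all genes, and at none in all 3 lists. 9 genes of this family had a peak of each mark. Of their H3K27me3 peaks, 54.1% were in promoter classes, and of their 15 H3K9me3 peaks 0% were.

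Those in all 3 lists included Foxl2, Gata4, Lhx4, Lhx9, Nkx2-4, Nkx2-5, Nkx3-2, Pax6 and Twist1. Gata4, a zinc finger factor of the heart, had 3, 1 and 4 H3K27me3 peaks with top scores of 90.9, 51.4 and 83.3. Lhx4, which acts in pituitary development, had 2 peaks per list with top scores of 71.6, 62.4 and 153. Nkx2-5, a cardiac homeobox gene, had top scores of 53.1, 52.8 and 51.8, close to the lower limit of 50 that the lists have. Pax6, a regulator of eye development, had top scores of 53.0, 64.7 and 53.1. None of these 4 genes had an H3K9me3 peak, and Nkx2-4 and Twist1 each had 1 in 1 list, with scores of 55.8 and 56.4.

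Of 39 Hox genes, which pattern the body axis and limbs, 7 (17.9%) had H3K27me3 in any list and 0 had H3K9me3, a mark that 5.24% of protein-coding genes had. Hoxd13, needed for digits, was the only Hox gene in all 3 H3K27me3 lists, with 1, 2 and 2 peaks and top scores of 54.9, 59.9 and 109. Hoxb13 and Hoxc13 were in lists 2 and 3. The strongest Hox peak was at the promoter of Hoxa13, at 211, in list 2 alone. The other 3 genes were Hoxb8, Hoxd10 and Hoxd12, and 4 of the 7 had a peak in 1 list only.

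Zinc finger genes were the largest such family for H3K9me3. Genes named Zfp, Zscan or Znf took 16.9%, 16.1% and 16.3% of H3K9me3 peaks and 0.211%, 0.406% and 1.21% of H3K27me3 peaks. Of 411 such autosomal genes in RefSeq, 105 (25.5%) had H3K9me3 in at least 1 list and 38 (9.25%) in all 3, and 7 (1.70%) had H3K27me3, none in all 3. Most members thus had no peak of either mark. Zfp640 led with 36, 32 and 32 H3K9me3 peaks and no H3K27me3 peak, and Zfp998 followed with 21, 18 and 17 and a single H3K27me3 peak of 50.1 in list 3. Their H3K9me3 peaks had a median width of 811 bp and reached 9026 bp, and 15.8% were in promoter classes. Neighbouring zinc finger genes are near copies of each other, and how reads that match several places were placed is not given in the sources used here, so the assignment to a single gene in these clusters is uncertain.

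Receptor families and uncharacterised transcripts took larger shares of H3K9me3 than of H3K27me3 peaks. Vomeronasal and trace-amine receptors, which sense pheromones and amines, took 6.94%, 5.42% and 5.26% of H3K9me3 peaks and 0%, 0.406% and 0.202% of H3K27me3 peaks. Of 639 such RefSeq genes and pseudogenes, 126 (19.7%) had H3K9me3 and 3 (0.469%) H3K27me3 in at least 1 list. Olfactory receptors took 1.82%, 1.70% and 1.05% of H3K9me3 peaks and 0.633%, 0.203% and 0.806% of H3K27me3 peaks, and of 1420 such RefSeq genes and pseudogenes 56 (3.94%) had H3K9me3, below the share of all protein-coding genes, and 8 (0.563%) H3K27me3. Clustered protocadherins, adhesion proteins of neurons, had H3K9me3 at 5 of 58 genes (8.62%), with Pcdhb22 and Pcdhgc4 in all 3 lists, and no H3K27me3. Genes with a Gm number or a name in Rik took 35.6% ± 1.28 of H3K9me3 and 22.2% ± 2.63 of H3K27me3 peaks (SD, n = 3 each). Of 22340 such genes in RefSeq, 507 (2.27%) had H3K9me3 and 192 (0.859%) H3K27me3 in at least 1 list. Both were below the 5.24% and 3.60% of protein-coding genes, but only 1356 of the 22340 are protein-coding, so the sets are unlike. Before matching to RefSeq by symbol the lists held 663 such genes with H3K9me3 and 255 with H3K27me3. In the 9 lists per mark of the other genotypes, developmental factors took 14.4% to 19.6% of H3K27me3 peaks and zinc finger genes 13.2% to 21.6% of H3K9me3 peaks.

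**Figure D2:**
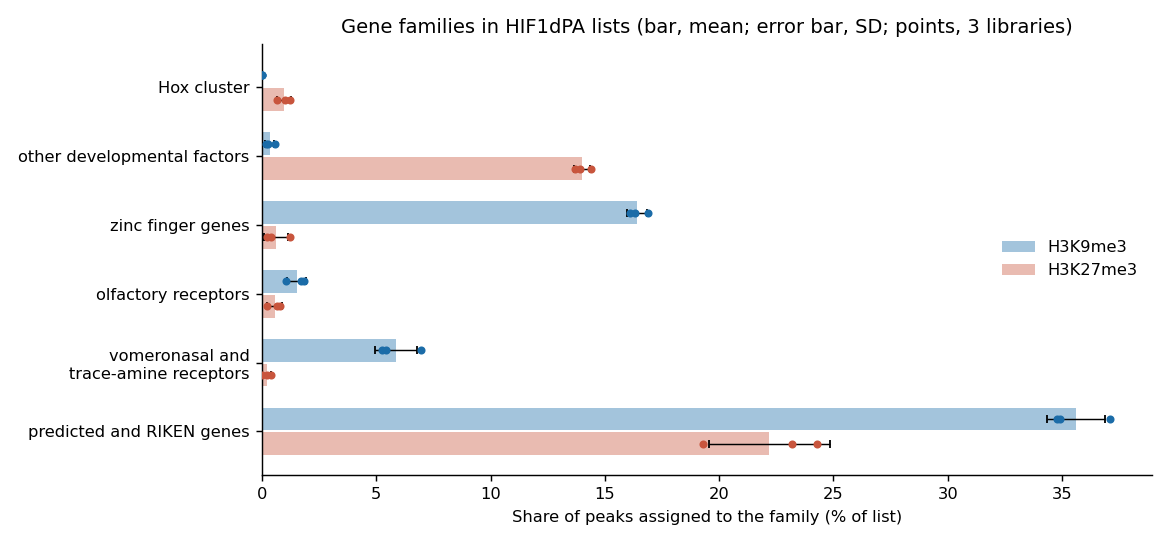
Percentage of the peaks of a list assigned to each gene family, for H3K9me3 and H3K27me3 in HIF1dPA (bars, mean; error bars, SD; points, 3 libraries). Developmental factors are near 14.0% of H3K27me3 peaks and 0.334% of H3K9me3 peaks, and zinc finger genes near 16.4% of H3K9me3 peaks and 0.609% of H3K27me3 peaks.

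Genes of muscle and of hypoxia were looked up in small lists, beside 8.38% of protein-coding RefSeq genes that had a peak of either mark in at least 1 list. Of 7 myosin heavy chain genes only Myh8 had a peak, an H3K27me3 peak in each list and no H3K9me3 peak. Of 11 regulators of muscle formation, 4 had a peak, each in 1 list. Pax3, a stem cell factor, had 2 H3K27me3 peaks in an intron in list 2 with a top score of 60.6, and Myf5, a myogenic transcription factor, had 1 in list 3 at 53.7. Eya1 and Mef2c each had 2 H3K9me3 peaks between genes in list 2, with top scores of 57.7 and 83.0. None of 15 autosomal hypoxia and HIF genes, Hif1a included, and none of 9 autosomal genes of muscle structure had a peak of either mark, and with lists this short such counts do not stand apart from that share. Nfatc2, which encodes a calcium-dependent transcription factor, had 1 H3K27me3 peak at its promoter in list 1 at 54.6, and Jarid2, a partner of Polycomb repressive complex 2, had 1 H3K9me3 peak in an intron in list 2 at 52.2. Of 32 autosomal imprinted genes in RefSeq, 1 (3.12%) had a peak, Rtl1 with H3K27me3 in list 2 at 79.7, which is near the 3.60% of protein-coding genes with this mark.

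Marker genes could check the labelled tissue only weakly, since the lists show where silencing marks lie and not what is expressed. None of 7 autosomal muscle fibre markers had a peak of either mark. Among the others, Myf5 (1 of 4 muscle stem cell markers), Cdh5 (1 of 4 endothelial), Adgre1 (1 of 5 immune) and Pdgfra (1 of 4 fibroblast) had a peak in 1 list each, with scores from 50.7 to 65.6, and 0 of 3 autosomal nerve and Schwann markers had one.

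The marks spread differently over the autosomes. The distance between their chromosome profiles, the share of peaks that would have to move to another chromosome to turn the mean profile of one mark into the other, was 28.8 percentage points (exact permutation p = 0.1, the smallest that 20 arrangements allow). On 15 of 19 chromosomes (78.9%) the 3 libraries of a mark did not overlap those of the other, with H3K27me3 higher on 9 (47.4%) and H3K9me3 on 6 (31.6%). Chromosome 13 held 16.1%, 15.6% and 17.4% of H3K9me3 peaks and 9.28%, 5.88% and 6.85% of H3K27me3 peaks. Chromosome 7 held 11.1% ± 0.787 of H3K9me3 and 3.41% ± 1.61 of H3K27me3 peaks (SD, n = 3 each). Chromosome 2 was the fullest for H3K27me3, with 12.7%, 10.8% and 10.9% against 5.06%, 4.09% and 4.73%. Chromosome 11, where Hoxb and Myh8 lie, held 6.89% ± 1.03 of H3K27me3 and 2.05% ± 0.191 of H3K9me3 peaks, and chromosome 19 held 3.76% ± 0.301 and 1.02% ± 0.130 (SD, n = 3 each).

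**Figure D3:**
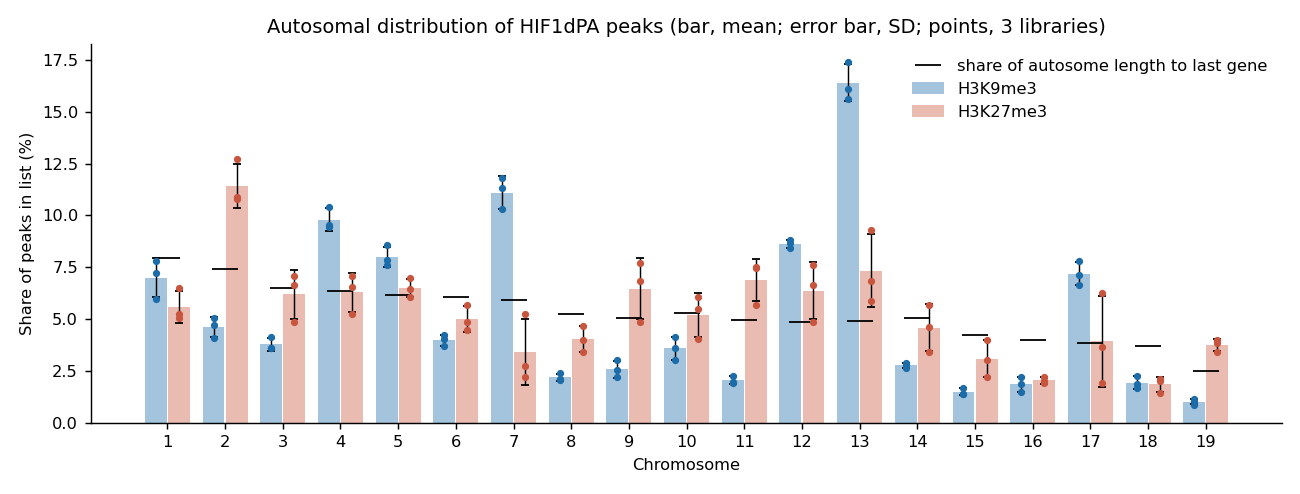
Percentage of the autosomal peaks of a list on each chromosome for H3K9me3 and H3K27me3 in HIF1dPA (bars, mean; error bars, SD; points, 3 libraries), with a dash at each chromosome's share of autosome length up to its last RefSeq gene. H3K9me3 stands highest on chromosome 13 (16.4%) and H3K27me3 on chromosome 2 (11.4%).

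H3K9me3 peaks were gathered in a few stretches more than H3K27me3 peaks were. The shares below were not compared at equal numbers of peaks or with an even spread. The 20 fullest bins of 1 Mb held 33.9%, 33.3% and 38.5% of the H3K9me3 peaks of a list and 15.8%, 16.4% and 16.9% of the H3K27me3 peaks. The fullest H3K9me3 bin, 66 to 67 Mb on chromosome 13 around Zfp640 and Zfp998, had 87, 76 and 68 H3K9me3 peaks and 0, 0 and 1 H3K27me3 peaks. The next, 65 to 66 Mb on the same chromosome, had 58, 67 and 62 H3K9me3 peaks and no H3K27me3. Bins with zinc finger genes on chromosome 4, from 145 to 146 and from 147 to 148 Mb, and the immunoglobulin heavy chain variable genes at 115 to 116 Mb on chromosome 12, with 37, 43 and 35 H3K9me3 peaks, were also without H3K27me3. The fullest H3K27me3 bin, 96 to 97 Mb on chromosome 11 with Igf2bp1 and Hoxb13, had 2, 8 and 9 H3K27me3 peaks and no H3K9me3. The bin at 147 to 148 Mb on chromosome 2, with Nkx2-4, Pax1 and Nkx2-2, had 6, 6 and 4 H3K27me3 peaks and 0, 1 and 0 H3K9me3 peaks. Of 2470 bins up to the last RefSeq genes, 783 had H3K27me3 and 1080 H3K9me3 in at least 1 list, and 328 had both.

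The question of whether the few H3K27me3 peaks coincide with H3K9me3 was then asked peak by peak. Of the 474, 493 and 496 H3K27me3 peaks, 11, 19 and 16 overlapped an H3K9me3 peak of any of the 3 lists by at least 1 bp, which is 2.32%, 3.85% and 3.23% (3.13% ± 0.771, SD, n = 3). In reverse, 15, 17 and 16 H3K9me3 peaks overlapped H3K27me3, which is 0.973%, 1.07% and 1.40% of their lists. Nearly all peaks of both marks therefore stood apart. With the 7 regions that were found in 20 or more of the 24 lists removed from every list, an alternative chosen after seeing the data, the shares were 1.66% ± 0.724 of H3K27me3 and 0.599% ± 0.0959 of H3K9me3 peaks (SD, n = 3 each). H3K9me3 regions of the 3 lists together covered 0.129% of the autosomes up to their last genes. The median distance from an H3K27me3 peak to the nearest H3K9me3 peak was 645, 637 and 659 kb, and 2.95%, 4.46% and 4.03% of H3K27me3 peaks lay within 5 kb of one.

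Many of the coinciding peaks were among the strongest of their lists, and some were weak. By score, the median coinciding H3K27me3 peak stood at percentile 98.1, 88.4 and 97.0 of its list. The peaks at Tcte2 (rank 455 in list 2) and Zfp998 (rank 486 in list 3) were near the bottom. Of the 20 highest-scoring H3K27me3 peaks of each list, 8, 7 and 9 overlapped H3K9me3. The median score of overlapping H3K27me3 peaks was 126, 79.8 and 106, and that of the rest 55.4, 55.3 and 56.1. Overlapping H3K9me3 peaks had median scores of 224, 186 and 184 against 58.5, 58.3 and 59.5. With only peaks of score 100 or more, 61 H3K27me3 peaks in the 3 lists, 27.1% ± 6.17 of them per list overlapped an H3K9me3 peak of that strength (SD, n = 3). The regions with both marks at that score numbered 6. They were assigned to Gm5614, Gm9075, Gm10800, Gm10801 and Chl1 and were in 19 to 24 of the 24 lists of the series. The share thus depended on the score cutoff, and at 100 it rested on these regions.

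Peaks of the 6 lists merged into 4822 regions, of which 3476 had H3K9me3, 1368 had H3K27me3 and 22 (0.456%) had both, 1.61% of the H3K27me3 regions and 0.633% of the H3K9me3 regions. H3K27me3 regions seldom came back in another list: 1295 were in 1 list, 59 in 2 and 14 in all 3. H3K9me3 regions came back more often, with 3017, 281 and 178. The similarity of lists, measured as base pairs shared by a pair over base pairs in either, averaged 0.163 within H3K9me3, 0.0421 within H3K27me3 and 0.00608 between the marks, and lists of a mark were closer to each other than to the other mark by 0.0965 (exact permutation p = 0.1). The share of H3K27me3 regions with H3K9me3 was 7 of 1295 (0.541%) for those in 1 list, 6 of 59 (10.2%) for those in 2 and 9 of 14 (64.3%) for those in all 3. Of these 9, 6 were found in 20 or more of the 24 lists of the series, whatever the antibody and genotype, and 3 of the other 8 regions had H3K9me3. How the input, duplicate reads and reads matching several places were handled is not given in the sources used here, and their part in peaks found with both antibodies was not tested. Of the 178 H3K9me3 regions in all 3 lists, 11 (6.18%) had H3K27me3.

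**Figure D4:**
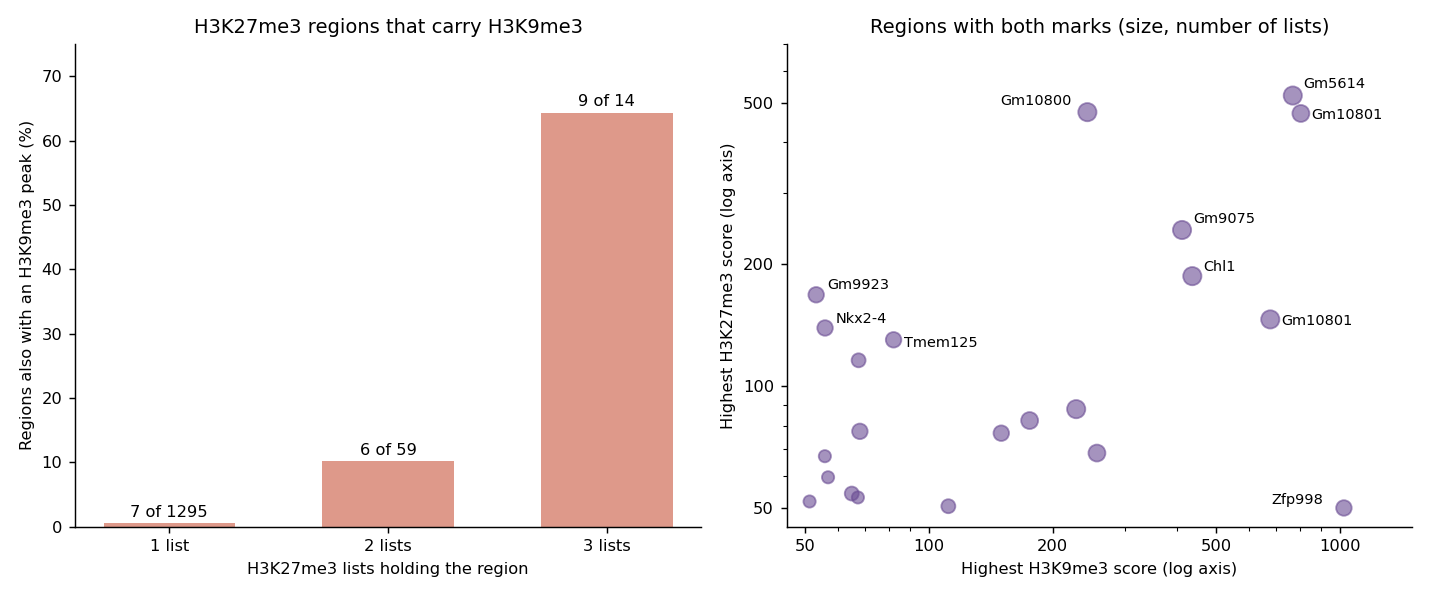
Left, percentage of HIF1dPA H3K27me3 regions that also had an H3K9me3 peak, by the number of H3K27me3 lists holding the region (7 of 1295, 6 of 59 and 9 of 14). Right, highest H3K9me3 score against highest H3K27me3 score at the 22 regions with both marks, on log axes, with larger points for regions in more lists.

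The H3K27me3 regions in all 3 lists with no H3K9me3 in any were 5 (0.104% of all regions). The first was Myh8 (ENSMUSG00000055775), the neonatal myosin heavy chain, at chr11:67281603-67284935 in a promoter class. It scored 1442, 1453 and 1468 and ranked 1 in every H3K27me3 list. No H3K9me3 list of any genotype had a peak there, and all 9 H3K27me3 lists of the other genotypes did. A call shows presence and not amount, which was not compared here. The study reports that H3K27me3 at Myh8 was lost in HIF1dPA myofibers. Coil, which encodes the Cajal body protein coilin, followed at chr11:88967559-88971243 within 1 kb of a start, with scores of 75.8, 157 and 206. Sp8, a transcription factor of limb outgrowth, had a region at chr12:118850184-118853076 that scored 73.2, 104 and 59.5. Gm43517, a predicted gene, scored 50.2, 80.4 and 109 at chr12:49386471-49388548, and Dock3, a guanine nucleotide exchange factor of neurons, scored 64.9, 52.0 and 55.1 at chr9:107229771-107231432. All 5 were present in the 9 H3K27me3 lists and absent from the 9 H3K9me3 lists of the other genotypes.

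The H3K9me3 regions in all 3 lists with no H3K27me3 in any were 167 (3.46% of all regions). Of the 10 strongest, 6 were assigned to 3 zinc finger genes and 3 predicted genes on chromosomes 13 and 4. Zfp640 had a region of 9832 bp at chr13:66667372-66677203, ranked 2, 2 and 4, with scores of 792, 727 and 688. Zfp998 had one of 3295 bp in intron 3 at chr13:66425536-66428830, with scores of 514, 346 and 182, and Zfp985 one of 6742 bp at chr4:147580818-147587559, with 279, 183 and 247. Gm26639 and Gm26806, predicted genes on chromosome 13, scored 334, 199 and 265 and 171, 275 and 336. Gm13034, on chromosome 4, had a region of 9515 bp across a promoter that scored 191, 281 and 333.

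The other 4 were on chromosomes 18, 9, 15 and 6. The pseudogene Vmn1r-ps151 scored 430, 269 and 354 at chr18:3006721-3011645. The region assigned to 2010315B03Rik at chr9:124256010-124258140 scored 326, 333 and 313 and was in all 9 H3K9me3 lists of the other genotypes. Ly6c2, a monocyte surface antigen, was the gene assigned to a region between genes at chr15:75085049-75087456 with 444, 186 and 480. A region assigned to Chl1, a neural cell adhesion molecule, at chr6:103314299-103315193 scored 241, 221 and 203.

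Of the 22 regions with both marks, 6 were in all 6 lists. Gm5614, at chr9:35304734-35305981 between genes, scored 578, 566 and 767 for H3K9me3 and 510, 522 and 450 for H3K27me3. It ranked 4, 5 and 3 in the H3K9me3 lists and 2, 2 and 3 in the H3K27me3 lists, and it was found in all 24 lists of the series with both antibodies. Gm9075, at chr12:3109344-3110544, scored 253, 354 and 413 for H3K9me3 and 228, 243 and 188 for H3K27me3 and was also in all 24 lists.

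A pair of neighbouring predicted genes on chromosome 2, Gm10800 and Gm10801, held 3 regions with both marks. The region at chr2:98663466-98665645, by a start of Gm10801, scored 612, 600 and 676 for H3K9me3 and 126, 146 and 107 for H3K27me3. The region at chr2:98665724-98667840, within 1 kb of a start of Gm10800, scored 232, 243 and 136 for H3K9me3 and 475, 51.2 and 231 for H3K27me3. The third, at chr2:98661809-98663400, scored 356, 646 and 803 for H3K9me3 and 355 and 472 for H3K27me3 in lists 2 and 3. These 3 were found in 23, 20 and 19 of the 24 lists.

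The 2 others in all 6 lists lay inside genes. Chl1 had a region over exon 5 and intron 4 at chr6:103648528-103649786, with 389, 176 and 437 for H3K9me3 and 187, 91.0 and 115 for H3K27me3, in 23 of 24 lists. 2210408I21Rik had one in intron 19 at chr13:77438455-77439339, with 194, 206 and 228 for H3K9me3 and 56.9, 87.8 and 66.5 for H3K27me3, in 21 of 24. Dpy19l2, known from the sperm head, and Aida followed with H3K9me3 in 3 lists and H3K27me3 in 2, the latter at 79.8 and 82.3 and at 68.4 and 55.7. Gm24614 had H3K9me3 in 3 lists and H3K27me3 in 1, at 76.6.

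At 3 regions H3K27me3 was in all 3 lists and H3K9me3 in only 1. Nkx2-4, a homeobox gene, at chr2:147087784-147090776, scored 139, 74.7 and 104 for H3K27me3 and had a single H3K9me3 peak of 55.8. Tmem125 at chr4:118546868-118549205, which spans the Gm40237 window printed above, scored 130, 110 and 109 against 82.0, and Gm9923 scored 122, 168 and 69.8 against 53.1. In the other genotypes, Nkx2-4 had H3K27me3 in 9 of 9 and H3K9me3 in 0 of 9 lists. The reverse held at Zfp998, at chr13:66429119-66439004, which ranked 1 in every H3K9me3 list with 1022, 846 and 879 and had 1 H3K27me3 peak of 50.1. Csf2ra, a cytokine receptor subunit, had each mark in 2 lists at scores of 50.6 to 77.4.

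The remaining 7 regions with both marks had 2 or 3 lists each. Of all 22, 13 carried both marks in another genotype too, 6 carried H3K27me3 only, 2 H3K9me3 only and 1 neither. 7 were in 20 or more of the 24 lists. They ranged from 594 to 9886 bp with a median of 1254 bp, 8 being wholly distal intergenic and 6 wholly in promoter classes.

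Across genes, 142 of the 2782 (5.10%) were assigned a peak of each mark, 13.5% of the 1048 H3K27me3 genes and 7.57% of the 1876 H3K9me3 genes. For 121 of the 142 the 2 marks lay only at separate regions, and for 21 at least 1 region carried both. 6 genes had both marks in all 3 lists each, namely 2210408I21Rik, Chl1, Gm10800, Gm10801, Gm5614 and Gm9075. Sharing a gene was thus mostly sharing the nearest annotated gene and not a position.

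Most recurrent regions were also present in the other genotypes. Of the 1295 HIF1dPA H3K27me3 regions in 1 list, 52.8% overlapped an H3K27me3 peak of another genotype, of the 59 in 2 lists 98.3% and of the 14 in 3 lists 100%. The share was 79.5% of the 521 regions with a promoter class and 40.4% of the 847 without. For H3K9me3 the shares were 24.9%, 81.5% and 99.4% for regions in 1, 2 and 3 lists.

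To ask whether coincidence was larger in HIF1dPA than elsewhere, H3K27me3 peaks of all genotypes were laid on the HIF1dPA H3K9me3 regions. The share was 3.13% ± 0.771 in HIF1dPA (SD, n = 3) and 0.593% ± 0.165 in the other genotypes (SD, n = 9), from 0.399% to 0.854%, a difference of 2.54 percentage points (exact two-sided permutation p = 0.00455, the smallest of 220 arrangements). The number of such peaks did not follow the share. It was 11, 19 and 16 in HIF1dPA lists and 15 to 20 in the others, a difference of -3.22 peaks (15.3 ± 4.04, n = 3, against 18.6 ± 1.81, n = 9, SD, exact two-sided permutation p = 0.0727), while the lists themselves held 474 to 496 and 2342 to 4023 H3K27me3 peaks. Among the 474 strongest H3K27me3 peaks of every list, on H3K9me3 lists cut to that number, the difference in share was 1.36 points with the same p. That cut kept nearly all HIF1dPA H3K27me3 peaks and only the strongest of the other genotypes. Among peaks of score 100 or more the difference in share was 26.2 points with the same p. The coinciding HIF1dPA regions at that score were those in 19 to 24 of the 24 lists. With the 7 regions found in 20 or more lists removed, it was 1.27 points in share (exact permutation p = 0.00455) and -4.11 in number of peaks (exact permutation p = 0.0545).

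**Figure D5:**
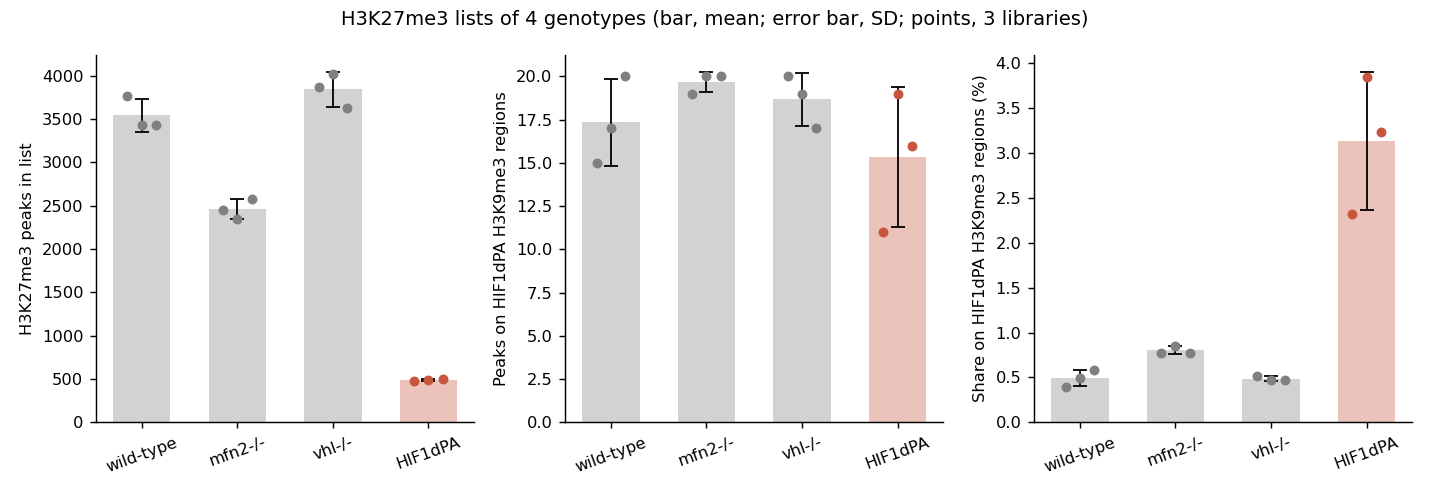
H3K27me3 peaks per list, the number of them on HIF1dPA H3K9me3 regions and their percentage of the list, for 4 genotypes (bars, mean; error bars, SD; points, 3 libraries). HIF1dPA lists are the shortest and have the highest percentage, while the number on H3K9me3 regions runs from 11 to 20 over all 12 lists.

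The contrast between the marks itself differed from that of the other genotypes in 3 of 4 measures, each tested as a difference of differences by exact two-sided permutation of the genotype labels within each mark, with Benjamini-Hochberg adjustment over the 4. H3K27me3 lists were shorter than H3K9me3 lists in HIF1dPA (log2 difference of peak number -1.53) and longer in wild-type (0.639), mfn2-/- (1.28) and vhl-/- (1.73), and the difference from their mean was -2.75 (exact permutation, adjusted p = 0.00325). That the HIF1dPA H3K27me3 peaks were few was known when the question was set, so this p-value is only a description. H3K27me3 peaks were wider than H3K9me3 peaks in the other genotypes (log2 difference of median width 0.341, 0.276 and 0.351) and not in HIF1dPA (-0.0376), a difference of -0.360 (exact permutation, adjusted p = 5.79e-04). The promoter share of H3K27me3 exceeded that of H3K9me3 by 25.1 points in HIF1dPA and by 34.4, 40.0 and 36.8 points in the others, a difference of -12.0 points (exact permutation, adjusted p = 0.00325), which was -2.54 points with an exact permutation adjusted p of 0.486 among peaks of score 100 or more. The intergenic contrast differed by 7.11 points (exact permutation, adjusted p = 0.0694). HIF1dPA also had the shortest H3K27me3 lists, and what that contributed was not tested. With every list cut to its 474 strongest peaks, the width contrast differed by -1.50 on the log2 scale and the promoter contrast by -24.9 points (exact permutation, adjusted p = 0.00322 and 0.00442). That cut kept nearly all HIF1dPA H3K27me3 peaks, 474 to 496 per list, and only the strongest of 2342 to 4023 in the other genotypes. It thus set unlike parts of the lists side by side and cannot show what list length contributed.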

How the data were processed

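ChIP-seq libraries of H3K9me3 and H3K27me3 from 4 genotypes, 3 per mark and genotype, were deposited as 1 annotated peak list each. An input library was not used here. Per the submitters' processing notes, reads were aligned with BWA 0.7.5 to mm10 (GRCm38), peaks were called with MACS and deepTools 3.5.0 was used. The role of the input and the handling of duplicate and multiply matching reads are not given in the sources used here. The deposited score equals -10 × log10 of the p-value that the caller gave, and is never below 50. The annotation to genes and classes is the authors' own. No list gives read totals.

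Groups came from the labels. Peaks on chromosomes 1 to 19 were kept, no pair of the 24 lists was identical, and peaks of the 6 HIF1dPA lists that overlapped by 1 bp were merged into regions. Tests were exact two-sided permutations over libraries: 3 against 3 (20 arrangements, smallest p 0.1), 3 against 9 (220, smallest p 0.00455) and the contrast of marks (48400 arrangements). Counts and widths were tested on the log2 scale. Regions and genes were described and not tested, with family counts set beside the share of RefSeq genes that had a peak, matched by symbol. The text names up to 10 regions per mark with the highest mean score percentile, the first 15 regions with both marks by number of lists, and members of gene lists. Family examples (factors in all 3 lists, Hox and zinc finger genes) and genes of full bins were picked after their values were seen. The members, lists and tests were chosen with earlier results of these data known. Promoter windows and sequences came from RefSeq (GRCm38.p6), matched by coordinates. Alternatives were a score of 100, equal list lengths, all chromosomes, joined peaks, other overlap, promoter, width and gene definitions, each HIF1dPA library left out, and a replicate block. The overlap, clustering and permutation code was tested on simulated data. Python 3.11.15, numpy 2.4.6, pandas 2.3.3, scipy 1.17.1 and matplotlib 3.10.9 were used.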

Additional observations from a re-analysis of the deposited data

Results flagged for a closer look

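Each of the following was flagged because the difference between HIF1dPA and the other genotypes was itself tested and passed 0.05, and groups of 3 libraries were not examined for single libraries far from the rest. The tests pooled the libraries of the other genotypes, so their p-values do not measure the spread between genotypes. The share of H3K27me3 peaks lying on HIF1dPA H3K9me3 regions was 2.54 percentage points higher in HIF1dPA than in the 9 other lists (exact two-sided permutation p = 0.00455, the smallest possible), beside a difference of -3.22 in the number of such peaks. The contrast of H3K27me3 against H3K9me3 differed from that of the other genotypes by -0.360 in log2 median width (adjusted p = 5.79e-04), by -12.0 percentage points in promoter share (adjusted p = 0.00325) and by -2.75 in log2 peak number (adjusted p = 0.00325), in exact permutation tests over 24 libraries. HIF1dPA H3K27me3 lists were also the shortest of the 4 genotypes, and what that contributed was not tested. Their shortness was known when the question was set, so the peak number contrast is a description. The overlap share has the same list length as its denominator.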

How the results depend on the processing

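Of 237 alternative values for 21 results, 200 kept their direction and their side of the threshold or stayed near the reported value. Comparisons of the marks within HIF1dPA cannot pass the threshold, so for them this count reflects direction only and not size. The width ratio, for instance, counts as kept at 0.618 with equal numbers of peaks, against 0.974. Reversed were the intron and exon difference, 0.422 points, and the ratio of genes per list, 1.46, with the 474 strongest peaks of each list, and the HIF1dPA difference on the H3K9me3 regions when counted in peaks, -3.22, or -4.11 with the regions of 20 or more of 24 lists removed, alternatives chosen after seeing the data. The peak number contrast has no value at equal number. The promoter contrast was -2.54 points at a score of 100 (exact permutation, adjusted p = 0.486), and the intergenic contrast was 8.28 points on all chromosomes (exact permutation, adjusted p = 0.0218) and 5.35 to 9.16 when 1 library was left out, passing the threshold without H3K9me3 library 2 (7.86, exact permutation, adjusted p = 0.0487) or H3K27me3 library 2 (9.16, adjusted p = 0.0350). The cause of these changes was not tested.

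At a score of 100 the shares of H3K27me3 and H3K9me3 peaks that coincide were 27.1% and 4.65%, the regions in all 3 lists of 1 mark alone 39 for H3K9me3 and 2 for H3K27me3, those with both marks 6, and the genes 36 and 3. With equal numbers the H3K9me3 share was 2.67%, its regions 107 and its genes 92. With the regions of 20 or more lists removed the shares were 1.66% and 0.599%. The H3K27me3 share was 3.90% on all chromosomes, 2.11% when 2 of 3 H3K9me3 lists were required and 3.99% in base pairs. The H3K9me3 share was 1.44% within 5000 bp and 0.827% when 2 of 3 lists were required. Without intergenic and downstream assignments 88 genes remained for H3K9me3, and requiring 2 of 3 lists gave 446 H3K9me3 and 58 H3K27me3 regions. Leaving out 1 library gave 167 to 293 H3K9me3 and 5 to 26 H3K27me3 regions, and 208 to 339 and 30 to 74 genes. The H3K9me3 regions rose to 260 without H3K9me3 library 1 and 293 without library 3, and the H3K27me3 regions to 26, 24 and 16 without H3K27me3 library 1, 2 and 3, since fewer lists then have to hold a region.

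Whether same-numbered libraries of the 2 marks share a mouse is not given. Deviations from the group means of lists 1, 2 and 3 correlated between the marks at 5.06e-04, 8.65e-04 and 0.00112 over 4822 regions, but with 22 regions carrying both marks this check could not show pairing. A replicate block gave p = 0.25 for the comparisons of marks, the smallest exact permutation value for 3 pairs, apart from 0.5 for width. With the replicate block the HIF1dPA difference of 2.54 points had an exact permutation p = 0.0156, and the contrasts had adjusted p = 0.00195 for width, 0.0107 for promoter share, 0.0977 for intergenic share and 0.0107 for peak number, so no call changed. Depth is unknown, and the short H3K27me3 lists, with most scores near the limit of 50, leave weak regions uncertain.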

Other observations

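The 7 regions with both marks and the fewest lists, described here after their values were seen, were assigned to Lin28b, Tcte2, Esrp1, 4921508D12Rik, Tchh, Blk and Dtwd2. At Lin28b, an inhibitor of let-7 maturation, the scores were 81.4 and 116 for H3K27me3 in lists 1 and 3 and 67.4 for H3K9me3 in list 3. Esrp1, an epithelial splicing regulator, had H3K27me3 at 54.4 and 54.1 in lists 2 and 3 and H3K9me3 at 64.9 in list 2. Lin28b, Esrp1 and Tchh each had H3K27me3 in 9 of 9 and H3K9me3 in 0 of 9 lists of the other genotypes. Dtwd2 had both marks in list 2 alone, at 52.0 for H3K27me3 and 51.2 for H3K9me3, and neither in another genotype.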
